A study of Mus musculus with 6 samples.

Results

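Oligosaccharyltransferase is the enzyme of the endoplasmic reticulum (ER) membrane that transfers a preassembled sugar chain from the lipid dolichol to asparagine residues of new proteins, the step that starts N-glycosylation. In mammalian cells it occurs as different complexes, each built around its own catalytic subunit. The STT3A complex sits at the protein-conducting channel, the translocon, and acts while the chain enters the ER. The STT3B complex acts mainly on sites that were passed over. Both share a set of non-catalytic subunits, and collagens, integrins and many cartilage matrix proteins are among the glycoproteins that pass through this step. The 10 subunits described here were Stt3a, Stt3b, Rpn1, Rpn2, Ddost, Dad1, Ost4, Ostc, Tusc3 and Magt1, out of 36711 genes in the files. They were taken by membership of the complex, and the complex was chosen on the level of Stt3a, which was higher in miR-455 null than in WT cartilage in this same comparison. The difference of Stt3a between genotypes is therefore given as a description without a test. The other 9 members, and the further subunits Tmem258 and Krtcap2, were compared to see whether they followed Stt3a.

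Total RNA of knee cartilage was sequenced from 3-month-old C57/Bl6 mice, in 3 libraries from miR-455 null mice and 3 from WT mice. The null mice carry a deletion made by genome editing at the gene of the microRNA miR-455 in all their cells, and the WT mice carry the intact gene; cartilage from 2 knees was pooled for a sample. Nothing in the labels says that the libraries of a genotype came from separate litters or days, so the spread between them may be in part technical. Values are normalised abundances per gene as deposited, read as corrected for transcript length, and are called abundance below. Mature miR-455 is not measured by these libraries, so the deletion could not be checked in them.

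Although the labels name the cells as chondrocytes, transcripts of blood-forming cells made up much of every library. Of 10 erythroid marker genes, 9 were found, and their summed share of all abundance was 21.5%, 19.9% and 11.4% in the null libraries, against 26.9%, 27.1% and 26.3% in the WT libraries. The 12 neutrophil markers held 8.38% to 20.5% in null and 8.64% to 10.4% in WT. The 15 cartilage markers summed to 0.0372% to 0.0822% in null and 0.0279% to 0.0326% in WT. The single gene Prg4 held most of these sums. Its abundance was 547.4 of 754.3, 294.9 of 540.8 and 216.1 of 365.9 in the null libraries. In the WT libraries it was 169.9 of 317.2, 165.9 of 305.0 and 193.9 of 332.4. Of those 15, 6 passed the filter on low values, all with higher means in null, whereas the aggrecan gene Acan had 3.30 to 7.15 in null and 3.06 to 4.21 in WT, and Sox9, the master regulator of chondrocytes, had at most 1.05 in null and 1.32 in WT. Matn1 was listed at 0 in WT replicate 2. In bulk tissue, fewer cells of a type and less RNA per cell cannot be told apart, and the abundances below are those of this mixture. Null replicate 3 stood apart most, with a median absolute log2 difference of 0.235 to 0.346 from each other library, against 0.136 to 0.217 between the remaining libraries.

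The mature microRNAs that the null mice lack are shown because their seeds, bases 2 to 8 from the 5′ end and in capitals here, pair with target 3′UTRs. Both sequences are from RefSeq on GRCm38.p6 and lie on the plus strand at chr4:63256867-63256888 for the 5p arm and chr4:63256904-63256924 for the 3p arm.
mmu-miR-455-5p: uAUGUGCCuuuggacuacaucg
mmu-miR-455-3p: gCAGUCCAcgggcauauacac

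The longest annotated 3′UTR of Stt3a, 3580 bases long, held 0 matches to either seed. Of the 10 subunits, Rpn1 held 2 matches to the 3p seed and Stt3b held 1 match to the 5p seed. The other members, Tmem258 and Krtcap2 held none. Among the 8657 genes tested that have an annotated 3′UTR, 13.1% held a match to the 3p seed and 8.35% a match to the 5p seed. These sites are given with the matching bases in capitals, on the strand of the transcript in GRCm38 (mm10): the Rpn1 sites at chr6:88104226-88104254 and chr6:88104901-88104929, plus strand, and the Stt3b site at chr9:115243630-115243658, minus strand. They are bases 690 to 696 and 1365 to 1371 of the Rpn1 3′UTR and bases 318 to 324 of the Stt3b 3′UTR.
Rpn1 first site: tgaggaagtcaTGGACTGgagaacactgg
Rpn1 second site: tgagaaacgggTGGACTGgtttctgatac
Stt3b site: atttggtccctGGCACATgcgtacctgtc

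A match is a description of the sequence and not a shown target site. With the other common form of seed match, pairing to bases 2 to 7 followed by A, 0 members held a match to either arm, against 11.3% of genes for the 3p arm and 7.32% for the 5p arm.

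Stt3a encodes the catalytic subunit of the translocon-bound complex and lies at chr9:36729344-36767679 on the minus strand. Its abundance was 63.0, 114.1 and 106.1 in the null libraries, against 35.8, 32.76 and 58.84 in the WT libraries. All 3 null libraries were above all 3 WT libraries, but the lowest null value, 63.0, stood close to the highest WT value, 58.84. Mean abundance was 94.39 ± 27.48 in null and 42.47 ± 14.26 in WT (SD, n = 3 each), a ratio of 2.22 and a log2 fold change of 1.15 ± 0.30 (SE). In all, 46 of the 9098 genes tested had a larger log2 fold change. The spread of Stt3a within genotypes was wide as well: its residual SD was 0.457 on the log2 scale, against 0.035 to 0.103 for the other 9 members and a median of 0.20 for all genes tested, and 8.32% of genes had a higher one. Leaving out 1 library at a time gave log2 fold changes from 0.985 to 1.41. Stt3a has 9 annotated transcripts of 285 to 5867 bases, and the values per gene sum over them; the part of any one transcript in the difference was not tested.

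Stt3b, the catalytic subunit of the other complex, did not show this pattern. It lies on the same chromosome at chr9:115242581-115310421, minus strand, with 1 annotated transcript. Its abundance was 28.94, 29.92 and 31.47 in null, against 31.33, 29.32 and 27.57 in WT, so that the genotypes overlapped. Means were 30.11 ± 1.28 in null and 29.41 ± 1.88 in WT (SD, n = 3 each), and the log2 fold change was 0.03 ± 0.11 (SE; 95% interval −0.21 to 0.28; adjusted p = 0.936, limma with Benjamini-Hochberg adjustment over all genes tested). The upper bound of this interval lay below the log2 fold change of Stt3a. That value led to the choice of the complex and has its own error, and the subunits were not tested against each other.

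**Figure D1:**
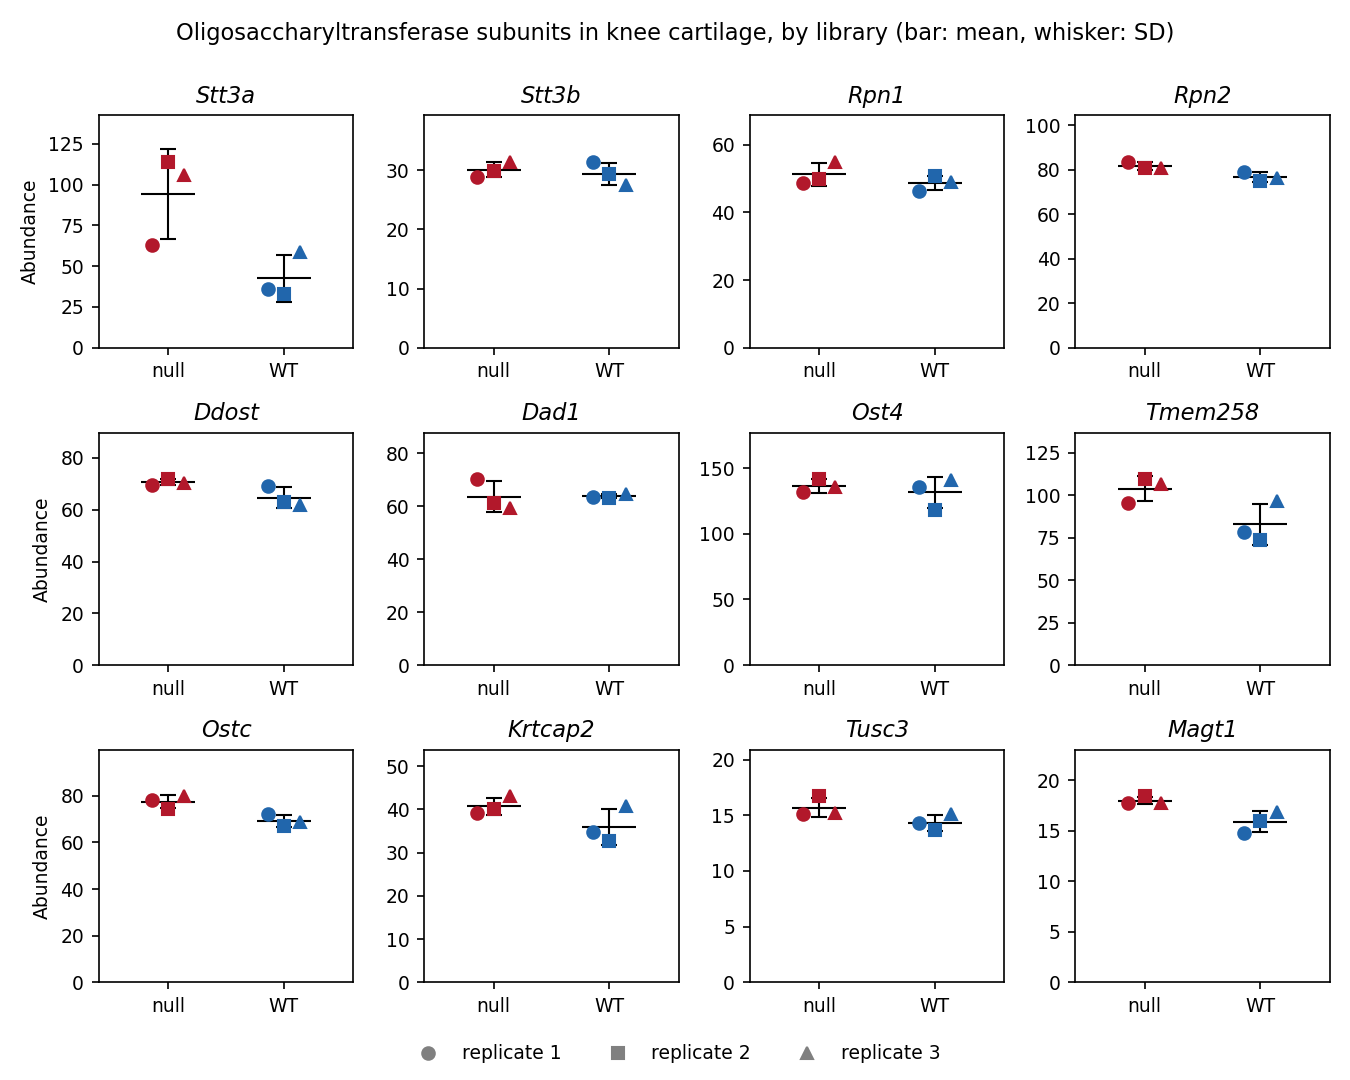
Abundance (y axis, from 0) of the 10 members and of Tmem258 and Krtcap2 in each library, miR-455 null in red and WT in blue; bars are means, whiskers SD (n = 3) and symbols replicates. Stt3a ranged from 63.0 to 114.1 in null and from 32.76 to 58.84 in WT, while Stt3b stayed between 27.57 and 31.47 in all 6 libraries.

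None of the 9 other members passed the test. Stt3a is described without a test and is not in this count, and the 1 gene called among all genes is not a subunit. By limma with Benjamini-Hochberg adjustment, 0 of 9 reached an adjusted p of 0.05, where 0.011% of all 9098 genes did, and their adjusted p ran from 0.812 to 0.984. At an unadjusted p of 0.05 the count was also 0 of 9, against 2.88% of all genes higher and 2.08% lower in null. Their differences were small and mostly of one sign: 8 of 9 had a log2 fold change above 0, against 53.3% of all genes, and the values ran from −0.01 to 0.17 with a median of 0.09, against a median of 0.02 for all genes. In 5 of 9, Rpn2, Ddost, Ostc, Tusc3 and Magt1, all null libraries lay above all WT libraries, against 5.36% of all genes with that order and 5.09% with the reverse order. The highest upper bound of the 95% intervals among these 9 was a ratio of 1.34. These intervals and p-values use a moderated SE, which draws on the spread of other genes. The residual SDs of the 9 members were 0.035 to 0.103, against a median of 0.20 for all genes tested. Their SEs were thus wider than their own spread alone would give.

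The larger shared subunits differed little between genotypes. Rpn1, ribophorin I, which is thought to hold some membrane substrates near the catalytic site, had 48.69, 49.98 and 55.05 in null, against 46.4, 50.75 and 49.04 in WT (log2 fold change 0.07 ± 0.11, SE; adjusted p = 0.865, limma with Benjamini-Hochberg adjustment). The genotypes overlapped for Rpn1, the member with 2 matches to the 3p seed. Rpn2, ribophorin II, had 83.6, 80.71 and 80.62 in null, against 78.89, 74.73 and 76.25 in WT (log2 fold change 0.09 ± 0.10, SE). The genotypes did not overlap for Rpn2, yet its adjusted p was 0.827 by limma. Ddost, a subunit that all forms of the enzyme need, had 69.75, 71.87 and 70.17 in null, against 69.36, 63.01 and 61.68 in WT (log2 fold change 0.13 ± 0.10, SE; adjusted p = 0.812 by limma). Its lowest null value and highest WT value differed by less than 1 SD of either genotype.

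The small shared subunits Dad1 and Ost4 showed no separation of the genotypes. Dad1, named for the death of cells that lose it, was the only member with a lower mean in null in the main comparison, with 70.24, 61.13 and 59.18 in null, against 63.5, 63.11 and 64.6 in WT. Its log2 fold change was −0.01 ± 0.11 (SE; adjusted p = 0.984 by limma), and its sign turned when each library was scaled to the same total (0.11). Ost4, a very short membrane protein that stabilises the catalytic subunit in yeast, had 131.5, 141.7 and 135.7 in null, against 135.8, 117.9 and 140.9 in WT (log2 fold change 0.06 ± 0.12, SE; adjusted p = 0.906 by limma). Without WT replicate 2 the log2 fold change of Ost4 was −0.02.

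Tmem258, a further small shared subunit and not one of the 10, had the largest log2 fold change after Stt3a among the 12 subunits. It had 95.51, 109.6 and 106.7 in null, against 78.17, 73.54 and 96.81 in WT. The highest WT library, WT replicate 3, lay above the lowest null library, null replicate 1, so the genotypes overlapped narrowly. The log2 fold change was 0.33 ± 0.14 (SE; 95% interval 0.00 to 0.66), with an unadjusted limma p of 0.0487 and an adjusted p of 0.812.

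The subunits particular to the STT3A complex link it to the translocon. Ostc had 78.13, 74.46 and 79.75 in null, against 72.25, 67.0 and 68.61 in WT, with no overlap. Its means were 77.45 ± 2.71 in null and 69.29 ± 2.69 in WT (SD, n = 3 each), and its log2 fold change of 0.16 ± 0.10 (SE; 95% interval −0.08 to 0.40) did not pass the test (adjusted p = 0.812, limma with Benjamini-Hochberg adjustment). Krtcap2 had 39.24, 40.0 and 43.0 in null, against 34.8, 32.6 and 40.68 in WT, with WT replicate 3 above the 2 lowest null libraries (log2 fold change 0.18 ± 0.12, SE; adjusted p = 0.812 by limma).

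Tusc3 and Magt1 are alternative thiol oxidoreductase subunits of the STT3B complex. Magt1 had 17.75, 18.4 and 17.77 in null, against 14.83, 15.99 and 16.9 in WT (log2 fold change 0.17 ± 0.10, SE; 95% interval −0.07 to 0.42; adjusted p = 0.812 by limma). Tusc3 had 15.13, 16.69 and 15.23 in null, against 14.29, 13.64 and 15.09 in WT (log2 fold change 0.13 ± 0.11, SE; adjusted p = 0.813 by limma). Neither overlapped between genotypes, although for Tusc3 the gap was only that between 15.13 in null replicate 1 and 15.09 in WT replicate 3.

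**Figure D2:**
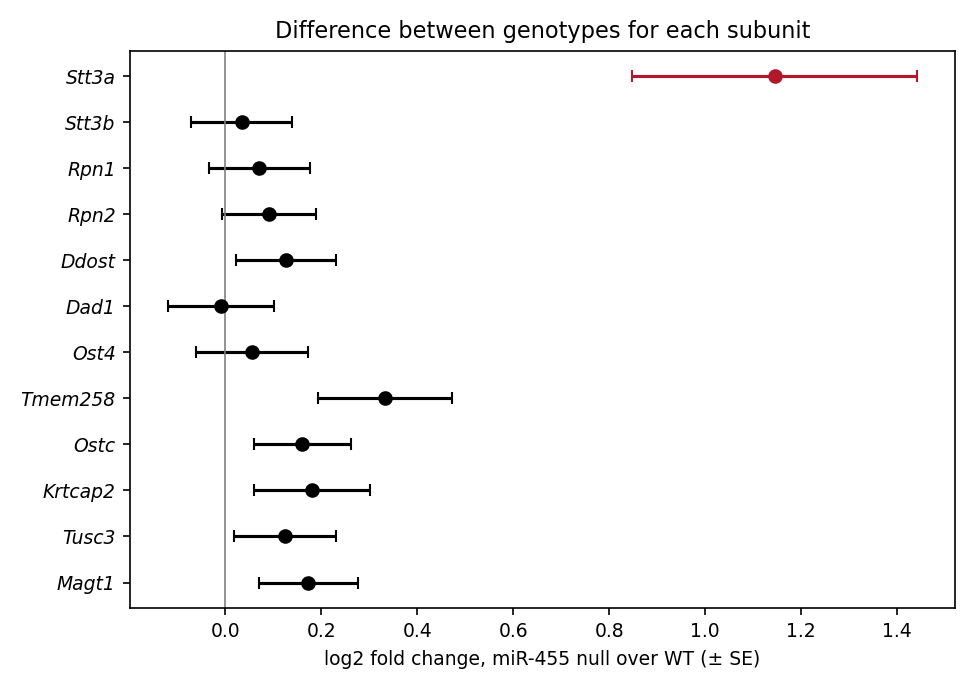
Log2 fold change of miR-455 null over WT (x axis) with its SE for the 12 subunits (y axis), Stt3a in red. Stt3a stood at 1.15 and Tmem258 at 0.33, and the other 10 subunits lay between −0.01 and 0.18.

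Because the abundances are read as length-corrected, the levels of different subunits may be set side by side, and the order of their means changed with genotype for 1 gene. In null the order of mean abundance was Ost4, Stt3a, Rpn2, Ostc, Ddost, Dad1, Rpn1, Stt3b, Magt1 and Tusc3, and in WT it was Ost4, Rpn2, Ostc, Ddost, Dad1, Rpn1, Stt3a, Stt3b, Magt1 and Tusc3. By these means Stt3a stood in place 2 in null and place 7 in WT, and the remaining 9 kept their order. The places of Stt3a did not hold in every library. In null replicate 1, Stt3a (63.0) lay below Rpn2 (83.6), Ostc (78.13), Dad1 (70.24) and Ddost (69.75). In WT replicate 3, Stt3a (58.84) lay above Rpn1 (49.04). Neighbours whose ranges overlapped were Stt3a and Rpn2, and Ddost and Dad1, in null; in WT they were Ostc and Ddost, Ddost and Dad1, Rpn1 and Stt3a, and Magt1 and Tusc3. The sum of the other 9 members was 543.8, 544.9 and 545.0 in null, against 526.6, 495.4 and 520.7 in WT.

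The balance between the catalytic subunits within each library followed Stt3a. The ratio of Stt3a to Stt3b abundance was 2.18, 3.81 and 3.37 in null, against 1.14, 1.12 and 2.13 in WT, a mean of 3.12 ± 0.85 in null and 1.47 ± 0.58 in WT (SD, n = 3 each). Expressed as the share of the pair, Stt3a made up 68.5%, 79.2% and 77.1% in null, against 53.3%, 52.8% and 68.1% in WT. Null replicate 1 and WT replicate 3 were nearly alike in this ratio, at 2.18 and 2.13. Since the ratio contains Stt3a, it carries the choice of the complex with it and is given without a test.

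Ratios of Stt3a to scaffold subunits also contain Stt3a, so they too carry the choice of the complex and are given without a test. The ratio of Stt3a to Rpn1 was 1.29, 2.28 and 1.93 in null, against 0.772, 0.645 and 1.20 in WT. Stt3a over the mean of Rpn1, Rpn2 and Ddost was 0.935, 1.69 and 1.55 in null, against 0.552, 0.521 and 0.944 in WT, and here null replicate 1 fell just below WT replicate 3. For Stt3b this quotient was 0.430, 0.443 and 0.459 in null, against 0.483, 0.467 and 0.442 in WT. The ratio of Ostc to Magt1, 1 subunit from each complex and neither of them catalytic, was 4.40, 4.05 and 4.49 in null, against 4.87, 4.19 and 4.06 in WT, with no separation of the genotypes.

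**Figure D3:**
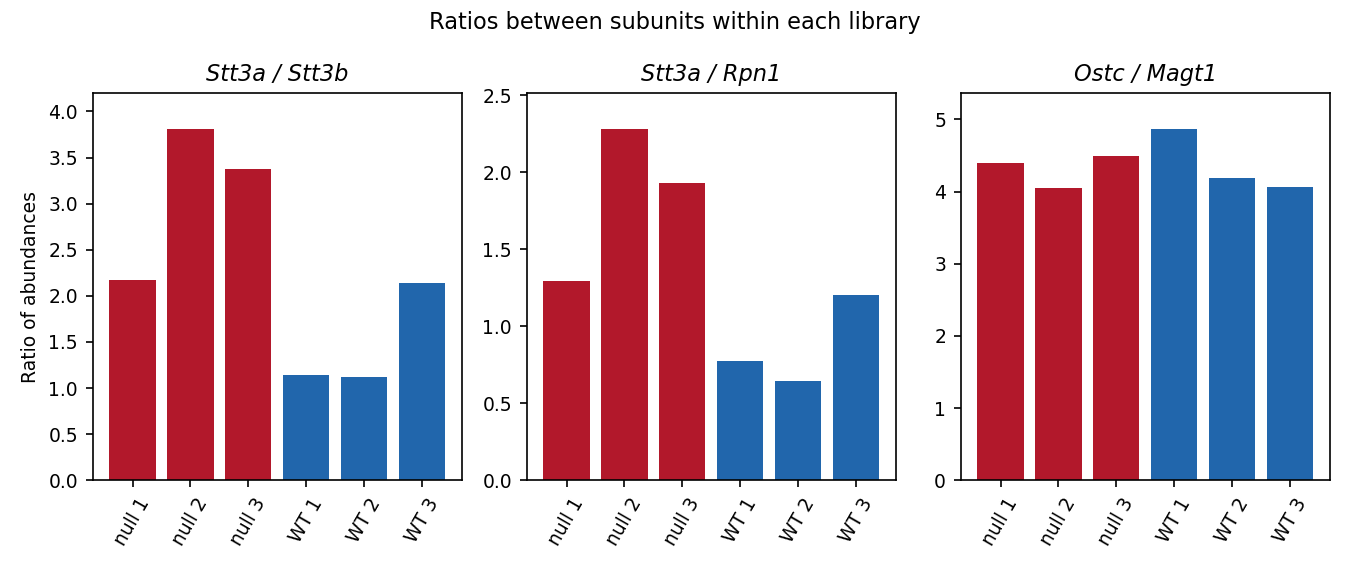
Ratio of abundances (y axis, from 0) within each library for Stt3a over Stt3b, Stt3a over Rpn1 and Ostc over Magt1, null libraries in red and WT libraries in blue. The first ranged from 2.18 to 3.81 in null and from 1.12 to 2.13 in WT, and the last from 4.05 to 4.49 in null and from 4.06 to 4.87 in WT.

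Across the libraries Stt3a was lowest in WT replicate 2, followed by WT replicate 1, WT replicate 3, null replicate 1, null replicate 3 and null replicate 2. Pearson correlation of log2 abundance over the 6 libraries was used to measure likeness to this pattern, as a description only, since the libraries share their genotype groups and their cell mixture. It is taken against the values of Stt3a that led to the choice of the complex. It thus carries that choice with it, and genes higher in null tend to a high r. Of the subunits, Tmem258 was most like Stt3a (r = 0.975, place 11 among the other genes tested), and r stayed between 0.967 and 0.991 when 1 library was left out. Each such set of libraries held both genotypes, so this range cannot set likeness apart from the difference between genotypes. Tusc3 (r = 0.901), Magt1 (r = 0.888) and Krtcap2 (r = 0.881) came in places 126, 153 and 168. Ostc had r = 0.685 and Ost4, Rpn2, Ddost and Rpn1 had r between 0.561 and 0.636, in places 1177 to 2127. Stt3b (r = 0.137) and Dad1 (r = −0.37) were unlike Stt3a, and for Stt3b r ran from −0.209 to 0.53 when 1 library was left out. Rank by likeness and size of change differed: Tmem258 tracked Stt3a closely over a far smaller range.

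The 5 genes nearest to Stt3a by this measure were Sec23b (r = 0.995), Zfp120 (r = 0.99), Ighv10-1 (r = 0.99), Ddx5 (r = 0.986) and Srp54a (r = 0.985). Sec23b encodes a coat subunit of vesicles that leave the ER, and its abundance was 22.26, 24.99 and 24.65 in null, against 20.07, 20.21 and 21.89 in WT. Srp54a encodes a subunit of the signal recognition particle, which brings ribosomes to the translocon, and had 39.87, 53.2 and 50.63 in null, against 35.75, 33.63 and 42.17 in WT. Ighv10-1, an immunoglobulin variable gene segment, had 18.1, 28.52 and 26.25 in null, against 7.53, 7.26 and 14.37 in WT. The B and plasma cell markers went the other way, with 11 of 11 tested lower in null. Zfp120 had 6.17, 7.58 and 7.02 in null, against 4.57, 4.61 and 5.76 in WT. Ddx5 had 324.0, 360.1 and 354.9 in null, against 294.6, 286.3 and 331.8 in WT. An r at or above that of Tusc3, 0.901, was reached by 126 genes.

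The promoters of Stt3a and of Tmem258, the subunit with the highest r with Stt3a, are shown for the elements of the ER stress response. Each runs from 250 bases before to 50 bases after the RefSeq start site on GRCm38.p6, Stt3a at chr9:36767573-36767872 on the minus strand and Tmem258, the first of its 2 windows, at chr19:10203952-10204251 on the plus strand. Capitals mark CCAAT and CCACG, the outer parts of the ER stress response element, searched on both strands.
Stt3a: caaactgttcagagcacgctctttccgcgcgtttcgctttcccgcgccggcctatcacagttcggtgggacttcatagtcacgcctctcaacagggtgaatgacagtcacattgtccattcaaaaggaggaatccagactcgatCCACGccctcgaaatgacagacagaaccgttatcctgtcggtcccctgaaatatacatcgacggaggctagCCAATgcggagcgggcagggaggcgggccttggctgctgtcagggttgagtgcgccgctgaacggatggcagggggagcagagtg
Tmem258: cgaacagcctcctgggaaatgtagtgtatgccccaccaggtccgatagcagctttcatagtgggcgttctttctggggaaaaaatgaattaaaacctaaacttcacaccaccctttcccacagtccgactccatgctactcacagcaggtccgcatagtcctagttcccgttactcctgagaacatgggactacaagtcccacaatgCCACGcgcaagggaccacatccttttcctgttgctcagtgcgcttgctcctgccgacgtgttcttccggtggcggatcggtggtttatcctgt

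In the Stt3a window CCACG started at −106 and CCAAT at −35 from the start site, which is not the order or spacing of the element with CCAAT first. This form of the element, CCAAT followed after 9 bases by CCACG, was found in none of the windows of the subunits with an entry and in 0.119% of all 32851 windows. TGACGTGG, the core of the unfolded protein response element, was likewise found in none of them and in 0.676% of all windows. These outer parts alone are common, CCACG in 32.8% and CCAAT in 37.4% of windows. The other known form of the ER stress response element, ATTGG and CCACG with 1 base between them, was searched after the windows had been read. It was found once among the subunits, on the plus strand from +17 in the second of the 2 Krtcap2 windows, chr3:89246223-89246522, and in 0.0365% of all windows. That window is shown for this match, with capitals as above (CCAAT reads ATTGG on the other strand); the match is a description and not a shown site.
Krtcap2: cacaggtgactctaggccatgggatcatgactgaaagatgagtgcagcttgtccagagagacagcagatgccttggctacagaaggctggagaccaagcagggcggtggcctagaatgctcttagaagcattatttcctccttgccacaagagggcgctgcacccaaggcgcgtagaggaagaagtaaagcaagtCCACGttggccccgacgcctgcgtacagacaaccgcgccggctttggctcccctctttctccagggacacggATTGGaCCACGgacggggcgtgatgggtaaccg

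The rest of the N-glycosylation pathway was taken from lists of genes by step. In the counts below, a gene has a higher or lower mean in null by its mean log2 abundance. The enzymes that assemble the sugar chain on dolichol, the donor substrate of the complex, showed no common direction: of 23 listed genes 17 were tested, 9 had a higher and 8 a lower mean in null, and the median log2 fold change was 0.02, as for all genes (0.02). None was called, against 0.011% of all genes, and 1 gene, lower in null, had an unadjusted p under 0.05, against 2.08% of all genes. That gene was Dpm3, which anchors the synthase of dolichol-phosphate mannose, with 80.32, 75.5 and 75.16 in null, against 124.6, 104.3 and 85.69 in WT (log2 fold change −0.43 ± 0.15, SE; adjusted p = 0.812 by limma). Dpagt1, which makes the first sugar linkage of the chain, had 11.37, 10.38 and 11.7 in null, against 9.09, 9.84 and 9.48 in WT (log2 fold change 0.22 ± 0.11, SE). Dpm1, the catalytic subunit of the same synthase as Dpm3, averaged 40.14 ± 8.03 in null and 44.47 ± 8.53 in WT (SD, n = 3 each).

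For the supply of nucleotide sugars, 9 of 11 listed genes were tested, 8 with a higher and 1 with a lower mean in null (median log2 fold change 0.10), none was called (0.011% of all genes), and 2 had an unadjusted p under 0.05 (2.88% of all genes, higher in null). Those were Gnpnat1, an enzyme of UDP-N-acetylglucosamine synthesis, with 9.34, 8.11 and 9.55 in null, against 6.23, 5.73 and 6.87 in WT, and Gmppb, which makes GDP-mannose, with 11.58, 11.19 and 11.61 in null, against 8.54, 8.85 and 9.53 in WT. Their log2 fold changes were 0.49 ± 0.14 and 0.34 ± 0.11 (SE), each with an adjusted p of 0.812 by limma. The most abundant genes of the list were Ugp2, which makes UDP-glucose, at 46.97 ± 11.0 in null and 35.49 ± 1.30 in WT, and Gmppa, a regulator of GDP-mannose synthesis, at 28.59 ± 5.22 in null and 26.57 ± 3.60 in WT (SD, n = 3 each). Without null replicate 1 the split of this list was 5 higher and 4 lower.

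The steps after transfer, glucose and mannose trimming and the lectin chaperones that read the trimmed chain, had 18 of 19 listed genes tested, 16 with a higher and 2 with a lower mean in null and a median log2 fold change of 0.16. None was called, 5 had an unadjusted p under 0.05, all higher in null, and in 8 the null libraries lay above all WT libraries, where over all genes tested 0.011% were called, 2.88% were higher in null at that p and 5.36% had all null above all WT. Calr, calreticulin, a lectin chaperone, had 253.6, 301.0 and 241.8 in null, against 201.0, 196.3 and 194.1 in WT (log2 fold change 0.42 ± 0.13, SE; adjusted p = 0.812 by limma). Edem1, which directs misfolded glycoproteins to degradation, had 40.34, 45.32 and 54.48 in null, against 29.16, 29.72 and 34.29 in WT (log2 fold change 0.57 ± 0.14, SE). Pdia3, the disulfide isomerase that works with calreticulin, had 162.3, 157.3 and 154.6 in null, against 127.5, 121.1 and 145.9 in WT (log2 fold change 0.27 ± 0.12, SE).

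Of the 18 translocon genes, all tested, 13 had a higher and 5 a lower mean in null, with a median log2 fold change of 0.06. None was called (0.011% of all genes), and at an unadjusted p of 0.05 the list had 2 genes higher in null (2.88% of all genes) and 1 lower (2.08%). Sec61a1, the pore subunit, had 45.88, 48.03 and 51.57 in null, against 39.0, 41.46 and 37.68 in WT (log2 fold change 0.30 ± 0.11, SE). Sec61g, a small subunit of the same channel, went the other way, with 37.99, 38.72 and 37.46 in null, against 56.72, 46.43 and 48.23 in WT (log2 fold change −0.40 ± 0.12, SE). The adjusted p was 0.812 for both by limma. The most abundant were Sec61b, the third channel subunit, at 301.1 ± 20.07 in null and 280.2 ± 24.1 in WT, and Sec11c, a signal peptidase subunit, at 185.7 ± 26.99 in null and 184.5 ± 33.92 in WT (SD, n = 3 each).

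Among 21 ER chaperones and stress response genes, all tested, 18 had a higher and 3 a lower mean in null, with a median log2 fold change of 0.24. None was called, 5 had an unadjusted p under 0.05, all higher in null, and in 7 all null libraries lay above all WT libraries, beside the shares of all genes of 0.011%, 2.88% and 5.36%. Hspa5, the chaperone BiP, had 242.5, 251.4 and 234.9 in null, against 151.9, 155.8 and 201.3 in WT (log2 fold change 0.53 ± 0.14, SE; adjusted p = 0.812 by limma). Hyou1, a co-chaperone of BiP, had 19.46, 21.29 and 19.41 in null, against 13.46, 14.43 and 16.37 in WT (log2 fold change 0.43 ± 0.12, SE). Both were without overlap, whereas Hsp90b1, the ER form of HSP90, overlapped, at 173.8 ± 23.02 in null and 147.6 ± 21.25 in WT (SD, n = 3 each). The 3 genes with a lower mean in null were Syvn1, Atf4 and Ddit3. Their log2 fold changes were −0.285 ± 0.198, −0.156 ± 0.178 and −0.104 ± 0.17 (SE).

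**Figure D4:**
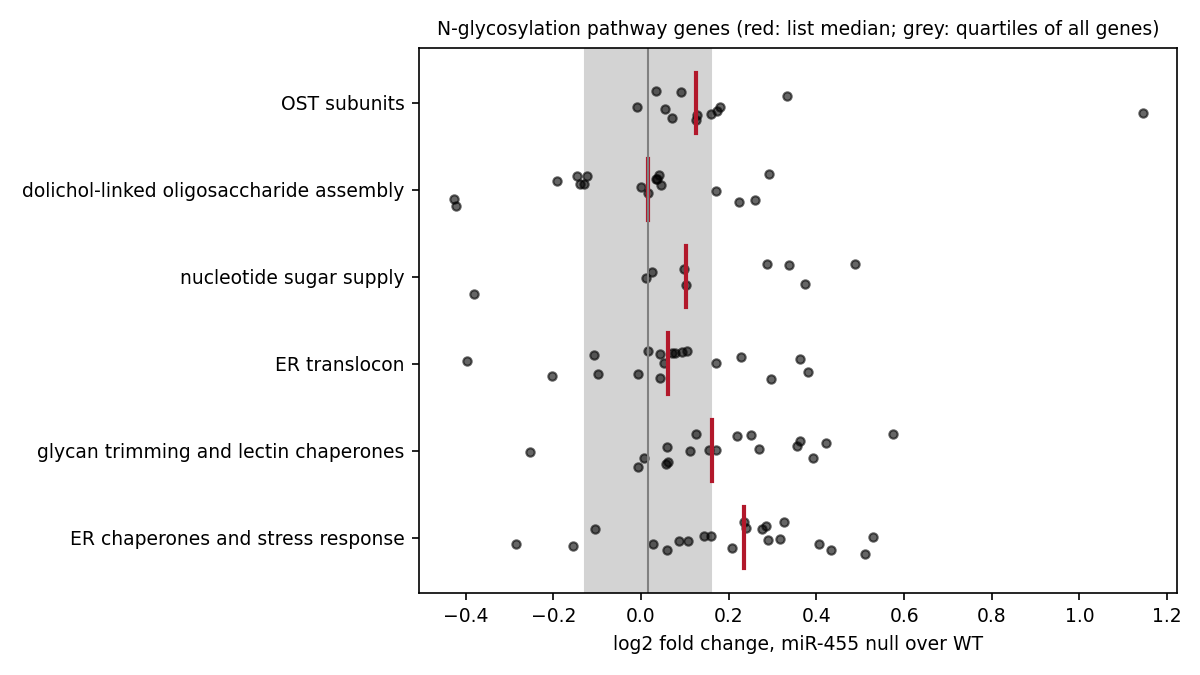
Log2 fold change of miR-455 null over WT (x axis) for each tested gene of the 12 oligosaccharyltransferase subunits and of 5 pathway lists (y axis); red lines are list medians, and the grey line and band are the median and quartiles of all 9098 genes (0.02, from −0.13 to 0.16). Stt3a, on whose level the complex was chosen, is the point at 1.15, and the list medians ran from 0.02 for dolichol-linked assembly to 0.24 for ER chaperones.

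Markers of other cells also differed in mean level between the genotypes, but none of those tested was called, against 0.011% of all genes tested. By mean log2 abundance, 9 of 9 erythroid and 11 of 11 B and plasma cell genes tested were lower in null, with median log2 fold changes of −0.57 and −0.66. Higher in null were 12 of 12 neutrophil, 8 of 8 macrophage, 6 of 6 fibroblast and 5 of 5 skeletal muscle genes. The medians of these 4 lists were 0.31, 0.31, 0.19 and 1.28. Osteoblast markers had 8 higher and 2 lower by the same measure. Over all genes tested, 53.3% had a log2 fold change above 0. Of 10 listed muscle genes, 5 passed the filter on low values. Myl1 passed it through the null libraries alone, with 21.99, 7.40 and 7.19 in null, against 2.46, 4.53 and 3.64 in WT. The muscle count and median thus lean in part on the filter. Single libraries carried some of these sums: the neutrophil share was 8.38%, 12.6% and 20.5% in null, against 10.4%, 8.64% and 9.05% in WT, so that null replicate 1 lay below every WT library. All null libraries lay above all WT libraries in 0 of 12 neutrophil, 1 of 8 macrophage, 2 of 6 fibroblast and 3 of 5 muscle genes, against 5.36% of all genes. The reverse order held in 5 of 9 erythroid and 3 of 11 B and plasma cell genes, against 5.09% of all genes. The fibroblast share was 0.0615%, 0.0301% and 0.0309% in null, against 0.0236%, 0.0302% and 0.0249% in WT, highest in null replicate 1. The summed share of the B and plasma cell markers, which include cells with a large ER, was 0.276%, 0.230% and 0.154% in null, against 0.313%, 0.230% and 0.262% in WT. Mzb1, an ER protein of plasma cells, had 22.68, 25.89 and 15.56 in null, against 31.97, 27.67 and 41.87 in WT. Muscle markers were highest in null replicate 1, at 0.0212% of abundance, and 0.00733% and 0.00855% in the other null libraries, against 0.00395% to 0.00636% in WT. None of these marker lists summed to 0 in any library. The part of the cell mixture in the differences of Stt3a, the other subunits and the pathway lists was not tested. With each library scaled to the same total outside the erythroid and neutrophil markers, the log2 fold change of Stt3a was 1.16. This scaling divides all genes of a library by a common factor, so it cannot show the part of the cell mixture.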

How the data were processed

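RNA-seq of knee cartilage from 3 miR-455 null and 3 WT samples was used. Per the labels and the study's methods, the authors checked reads with FastQC, trimmed them with Trim Galore, quantified transcripts with kallisto against mm10 and normalised them with sleuth; no source used here gives versions. The values, named normalised counts by the authors, are not whole numbers as deposited, so they were treated as a signal (abundance per gene) and no count model was used. Library totals were 917819 to 1135956 and the percentage of reads aligned, as deposited by the authors, was 83.3% to 92.6%. Read depth behind each value is unknown, so no counting interval is given.

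Genes with an abundance of at least 5 in at least 3 libraries (9098 of 36711) were fitted with limma 3.58.1 (R 4.3.3) on log2(abundance + 0.5), with a trended prior and genotype as the only term, and p-values were adjusted by Benjamini-Hochberg over all of them at a threshold of 0.05. Fold changes are on that log2 scale, which understates changes of low genes. All 10 members passed the filter. The fit was tested on simulated data. Samples were grouped by their genotype labels. The members and gene lists were chosen with earlier results of these data known. Named genes were all subunits, the 5 genes nearest Stt3a and, in each pathway list, the 2 with the highest mean and the 2 with the smallest p. Mzb1, Myl1, Acan, Sox9, Matn1 and Prg4 were named from the marker lists. Syvn1, Atf4 and Ddit3 were named from the chaperone list for their lower means in null. Gene models and 3′UTRs were from GENCODE M21, and promoters and microRNAs from RefSeq (one promoter motif was added after the windows were read); Ostc and Tusc3 had no promoter entry. The planned comparison of protein sequences was not made. Alternatives were the pseudocount, the filter, the scaling, the trend, a replicate block, the seed match and leaving out each library. The 1 gene called in the whole table is not a subunit and is not reported here.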

Additional observations from a re-analysis of the deposited data

How the results depend on the processing

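None of the other members was called under any alternative run, where Stt3a, described without a test, was not counted. Of the log2 fold changes of the 12 subunits under alternatives, 183 of 190 kept their sign. The exceptions were Dad1, at 0.11 with each library scaled to the same total (which moved the median of all genes by 0.13) and 0.008 with the same total outside erythroid and neutrophil markers, and leaving out 1 library, which gave −0.083 to 0.04 for Dad1, −0.022 to 0.107 for Ost4 and −0.01 to 0.08 for Stt3b. Leaving out 1 library gave 7 to 9 members other than Stt3a above 0. The number of genes called, 1, became 2 without any filter on low values, 4 when a minimum of 1 in 3 libraries was asked, and 1 to 9 leaving out 1 library (6 without null replicate 1 and 9 without WT replicate 3). The 451 genes at an unadjusted p under 0.05 became 1116 with no filter, 713 with the minimum of 1, 186 with a mean of at least 20, and 235 to 1957 leaving out 1 library (1957 without null replicate 1); other than the changed number of genes tested, the cause was not tested.

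Counts of pathway genes moved under other filters, which change the genes tested, and under other scalings or without 1 library, where the cause was not tested. For dolichol-linked assembly 14 were higher in null with no filter and with the minimum of 1, and 0 were higher and 4 lower with a mean of at least 20. For nucleotide sugars 4 were higher and 0 lower with a mean of at least 20, 2 were lower with median-ratio scaling, and leaving out 1 library gave 5 to 8 higher and 1 to 4 lower. For trimming and lectins 0 were lower with a mean of at least 20, 1 with the same total, 1 with the same total outside the markers, and 1 to 3 leaving out 1 library. For the translocon 2 were lower with the same total and 3 to 7 leaving out 1 library, and for chaperones 2 to 5 leaving out 1 library. Replicate numbers did not pair the samples (correlations of deviations −0.142, −0.014 and −0.037). With a replicate block 1 gene and 0 members were called, again without counting Stt3a. Read depth is unknown. The moderated SE draws on the spread of other genes of like abundance: for Rpn2 it was 0.098, beside a residual SD of its own of 0.035. The first is of a difference of means and the second of single libraries, so they are not the same measure.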
